A study of Homo sapiens with 12 samples.

Results

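The cytosolic ribosomal protein genes encode the protein part of the ribosome that translates nuclear-encoded messages, and they are described here through the H3K27ac and H3K4me1 summits called at and around them in Huh7 cells given 15 µM or 0 µM choline. Members were taken by symbol from the RefSeq protein-coding genes on chromosomes 1 to 22 and X. A symbol had to begin with RPL or RPS and a number, or be RPLP0, RPLP1, RPLP2 or RPSA, and the kinases named after their substrate RPS6 and symbols ending in L or L1 were left out. This gave 81 of 19974 genes. The count holds 3 readthrough genes that share an end with RPS10, RPL17 and RPL36A, and RPS19BP1, which encodes a binding partner of RPS19 and not a ribosomal protein, so that 77 members are single ribosomal protein genes. FAU and RACK1 encode ribosomal proteins but fall outside the symbol rule.

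Ribosomal proteins assemble with ribosomal RNA in the nucleolus into a small subunit, which reads the message, and a large subunit, which forms the peptide bond. Their genes are short, strongly transcribed in growing cells, and known for transcripts that begin with a cytosine inside an unbroken run of pyrimidines, the terminal oligopyrimidine (TOP) tract through which translation of these messages follows nutrient signalling. Many of their introns also carry small nucleolar RNA (snoRNA) genes, whose products guide the chemical modification of ribosomal and other RNAs. Acetylation of histone H3 at lysine 27 is found at promoters and enhancers in use, and monomethylation at lysine 4 at enhancers and beside active promoters.

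Huh7 is a human hepatocellular carcinoma line, used here without an engineered allele. Every library came from cells kept for 48 h in a custom DMEM lacking choline chloride in which B-27 supplement replaced the serum, and the choline added to it, 15 µM or 0 µM, was the difference between groups. There was 1 H3K27ac ChIP-seq library and 1 H3K4me1 library at each dose, so no test between doses was possible and every difference below is a difference between 2 libraries. The deposited lists give 1 position per peak, the summit, and a −log10 significance score, and they do not give read depth. The H3K27ac lists held 29305 summits at 15 µM and 37946 at 0 µM, a ratio of 0.772, while the H3K4me1 lists held 349202 at 15 µM and 343156 at 0 µM, a ratio of 1.02. Of 9 hepatocyte marker genes, 7 had an H3K27ac summit at a gene end at 15 µM and 7 at 0 µM, and of 10 markers of other cell types, 2 had one at 15 µM and 1 at 0 µM. A summit list from a bulk culture does not tell in what share of the cells a mark was present, and what moved the length of the H3K27ac list was not tested.

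The sequences around the first transcribed base are shown for the members with the highest-scoring summits, because the H3K27ac summits of these genes lay at this position and because the first bases are what the family shares. Each runs from 60 bases before to 20 bases from the annotated start, on the transcribed strand, in RefSeq's GRCh38.p14 annotation, and capitals mark the unbroken run of C and T that covers the first base. RPL21, RPL35A, RPS12 and RPL41 had an H3K27ac end summit at both doses.
RPL21 (chr13:27251498-27251577, plus strand): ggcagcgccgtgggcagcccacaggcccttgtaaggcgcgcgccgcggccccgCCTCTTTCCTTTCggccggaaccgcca
RPL35A (chr3:197950130-197950209, plus strand): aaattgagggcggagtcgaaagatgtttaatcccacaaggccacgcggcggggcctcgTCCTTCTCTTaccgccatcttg
RPS12 (chr6:132814509-132814588, plus strand): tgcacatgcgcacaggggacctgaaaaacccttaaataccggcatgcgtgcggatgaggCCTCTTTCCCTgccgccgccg
RPL41 (chr12:56116573-56116652, plus strand): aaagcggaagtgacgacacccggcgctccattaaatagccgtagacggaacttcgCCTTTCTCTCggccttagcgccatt
The next 8 had none at 15 µM and one at 0 µM.
RPL19 (chr17:39200223-39200302, plus strand): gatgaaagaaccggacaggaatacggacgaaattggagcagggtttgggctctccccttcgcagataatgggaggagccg
RPS14 (chr5:150449720-150449799, minus strand): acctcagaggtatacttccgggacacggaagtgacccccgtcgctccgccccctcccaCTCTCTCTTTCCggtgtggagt
RPS24 (chr10:78033803-78033882, plus strand): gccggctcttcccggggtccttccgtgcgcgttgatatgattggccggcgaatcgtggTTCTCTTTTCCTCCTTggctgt
RPLP2 (chr11:809907-809986, plus strand): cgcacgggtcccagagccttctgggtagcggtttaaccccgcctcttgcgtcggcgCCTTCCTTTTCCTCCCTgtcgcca
RPL35 (chr9:124861938-124862017, minus strand): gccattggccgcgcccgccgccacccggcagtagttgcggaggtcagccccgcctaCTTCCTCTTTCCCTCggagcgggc
RPS27 (chr1:153990702-153990781, plus strand): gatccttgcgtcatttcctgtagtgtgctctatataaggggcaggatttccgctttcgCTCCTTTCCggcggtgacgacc
RPS19 (chr19:41860195-41860274, plus strand): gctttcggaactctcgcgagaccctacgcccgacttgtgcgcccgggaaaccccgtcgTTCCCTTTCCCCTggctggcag
RPL14 (chr3:40457279-40457358, plus strand): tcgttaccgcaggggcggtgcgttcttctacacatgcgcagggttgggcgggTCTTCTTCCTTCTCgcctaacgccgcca
The last had one at 15 µM and none at 0 µM.
RPL11 (chr1:23691719-23691798, plus strand): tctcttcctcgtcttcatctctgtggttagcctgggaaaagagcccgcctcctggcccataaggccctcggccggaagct

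RPL19 and RPL11 stand apart in this set, since their annotated first bases are G and A and no run covers them. A run is counted only where it covers the annotated start, and at RPL19 a run of C and T ends just before it. Whether another start would change these calls was not tested. RPL21 has a run of 13 bases, RPS24 one of 16 and RPLP2 one of 17, each with C at the first base. A RefSeq promoter was available for 64 of the 81 members and for 15813 of all genes. C was the first base in 47 of the 64 (73.4%), against 11.3% of all promoters. A run of at least 5 pyrimidines covered the start in 45 members (70.3%), against 8.09% of all promoters and 10% of the 4530 genes with an H3K27ac summit within 1 kb of the start at 0 µM. Of members that had an H3K27ac end at 0 µM and lost it at 15 µM, 25 of 30 with a promoter (83.3%) had such a run. Of those with a summit at both doses it was 13 of 22 (59.1%). No test was made of this split. RPL36A among the lost members and RPL17 among those with both summits share their start with a readthrough gene, which is also counted. RPL4, RPL9, RPL32 and RPS26 are members with summits at both doses whose annotated starts had no run.

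Other short motifs were searched on both strands over 250 bases before to 50 bases after the start. The ETS-type motif, CCGGAAG or CTTCCGG, whose second form can overlap a pyrimidine run, occurred in 21 of 64 members (32.8%), against 14.1% of all promoters and 23.3% of those with a 0 µM H3K27ac summit at the start. A TATA box, TATAAA or TTTATA, occurred in 7.81% of members and 9.77% of all promoters. The SP-type motif, GGGCGG or CCGCCC, was in 54.7% of members and 58.4% of all promoters, and CCAAT or ATTGG was in 35.9% of members and 36.4% of all promoters. The YY1-type motif, AAGATGGCG or CGCCATCTT, was in 5 members (7.81%), against 2.69% of all promoters, and the E-box CACGTG was in 3 members (4.69%), against 8.83%. Among promoters with a 0 µM H3K27ac summit at the start, the shares were 5.03% for the YY1 type, 10.5% for the E-box, 70.4% for the SP type, 6.11% for the TATA box and 37.3% for the CCAAT box. These counts describe letters in a window and not bound sites.

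H3K27ac was called at far more ribosomal protein gene ends in the 0 µM library than in the 15 µM library. A summit lay within 1 kb of either gene end in 31 of 81 members at 15 µM (38.3%, exact 95% interval 27.7 to 49.7%), against 66 of 81 at 0 µM (81.5%, 71.3 to 89.2%). Over all protein-coding genes the shares were 16.2% at 15 µM and 28.3% at 0 µM. These intervals are Clopper-Pearson intervals and cover counting error only. An end was called lost when a 0 µM summit lay within 1 kb of it while 2 kb around both ends held no 15 µM summit. Of the 66 members with an end summit at 0 µM, 33 were lost (50%, 37.4 to 62.6%), beside 43.9% of all 5648 genes with one. The interval for the members includes the share over all genes, so the members' share of lost ends was near that of marked genes in general. The opposite change, a gained end, was met by 1 of 31 members, RPL11 (3.23%), beside 10.5% of all genes with an end summit at 15 µM.

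The 81 members fell into 30 with an end summit at both doses, 33 lost, 1 gained and 14 with none in either list. Among those with none were RPL6, RPL8, RPL10, RPL10A, RPL26, RPL29, RPL36, RPS10 and its readthrough gene, RPS15A, RPS20 and RPS28. The remaining 3, RPS25, RPLP0 and RPS9, had a 0 µM summit within 1 kb and a 15 µM summit between 1 and 2 kb from a gene end. Without the readthrough genes and RPS19BP1, end summits were at 30 of 77 members at 15 µM and 63 of 77 at 0 µM, with 31 of 63 lost (49.2%). For lost members the nearest 15 µM summit lay a median of 62254 bp from the gene end, with a range of 2655 to 2206863 bp, against a median of 35322 bp for all genes with a lost end. It was more than 10 kb away for 27 of the 33 members (81.8%), near the 78% of all genes with a lost end.

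**Figure D1:**
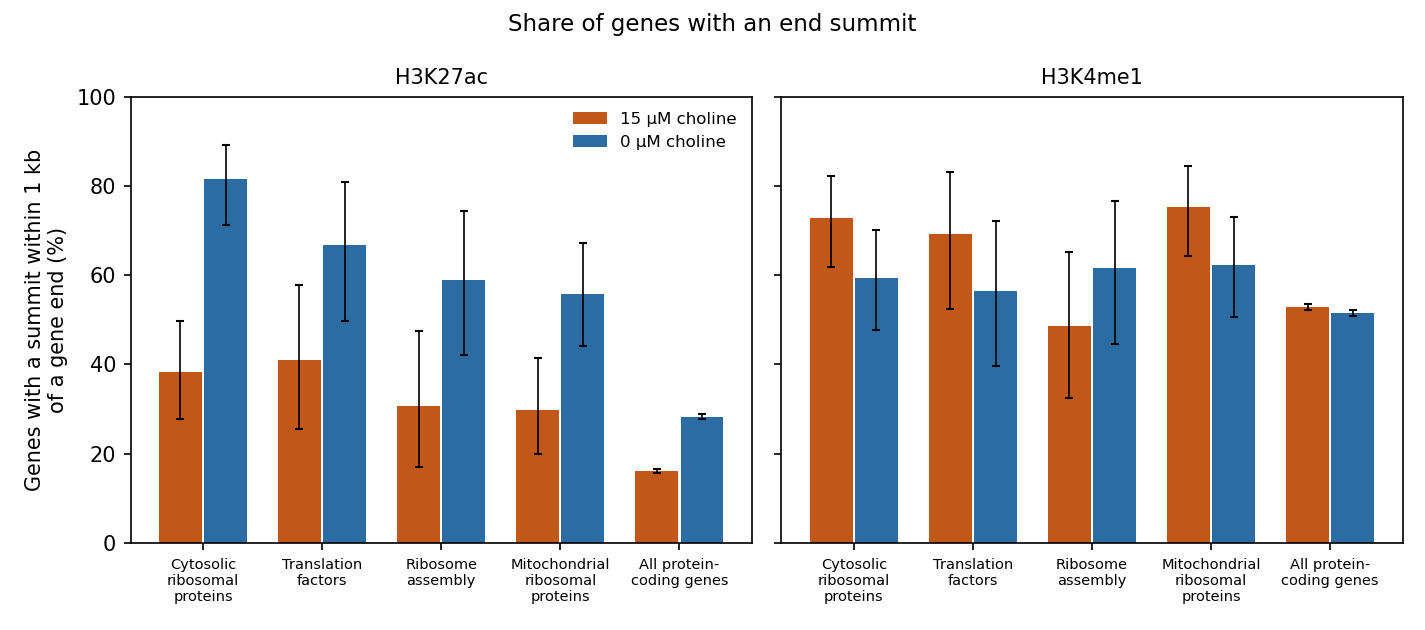
Share of genes with a summit within 1 kb of a gene end (y axis, percent) for the cytosolic ribosomal protein genes, comparison lists and all protein-coding genes, for H3K27ac (left) and H3K4me1 (right) at 15 µM and 0 µM choline, with exact 95% intervals that cover counting error only. For H3K27ac the cytosolic ribosomal protein genes stand at 38.3% at 15 µM and 81.5% at 0 µM, against 16.2% of all protein-coding genes at 15 µM and 28.3% at 0 µM.

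The plot of shares by list sets the family beside other translation genes. Of 39 translation factor genes, 16 had an end summit at 15 µM (41%) and 26 at 0 µM (66.7%), with 9 of 26 lost (34.6%). EEF1A1, the factor that delivers aminoacyl-tRNA, kept its summit, with scores of 24.9 at 15 µM (percentile 94.4 of its list) and 42.8 at 0 µM (percentile 96.6), while EEF2, the translocation factor, was lost with a 0 µM score of 9.69. Of 39 ribosome assembly genes, 12 had an end summit at 15 µM and 23 at 0 µM, and 11 of 23 were lost (47.8%). Nucleolin (NCL) kept its summit and nucleophosmin (NPM1) lost it, with a 0 µM score of 12.2. Mitochondrial ribosomal proteins, which serve the separate ribosome of that organelle, had end summits at 23 of 77 genes at 15 µM (29.9%) and 43 of 77 at 0 µM (55.8%), and 23 of 43 were lost (53.5%). The share lost lay between 34.6% and 53.5% in these 3 lists. The cytosolic family's 50% and the 43.9% of all genes with a 0 µM end summit were inside that range. Outside the symbol rule, RACK1, a scaffold protein on the small subunit, kept its summit with scores of 40.4 at 15 µM (percentile 98.8) and 39 at 0 µM (percentile 95.7), and FAU lost one that scored 8.66 at 0 µM.

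Ends with low scores in the 0 µM list were lost more often than ends with high ones. Lost members had a median 0 µM end score of 11.7 (quartiles 8.55 and 15.6, n = 33), and members with a 15 µM summit within 2 kb had 19.8 (14.8 and 27.2, n = 33). Over all genes the medians were 11.3 for lost ends and 18 for kept ones. Of members scoring 5 to under 10 at 0 µM, 13 of 15 were lost (86.7%, 59.5 to 98.3%), and of those scoring 10 to under 15, 11 of 19 were lost (57.9%). The share was 6 of 14 (42.9%) from 15 to under 20, 2 of 9 (22.2%) from 20 to under 30, and 1 of 9 (11.1%) at 30 or above. The same bins over all genes held 68.1%, 53.5%, 36.8%, 22.9% and 9.08% lost ends, and each lay inside the members' interval.

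**Figure D2:**
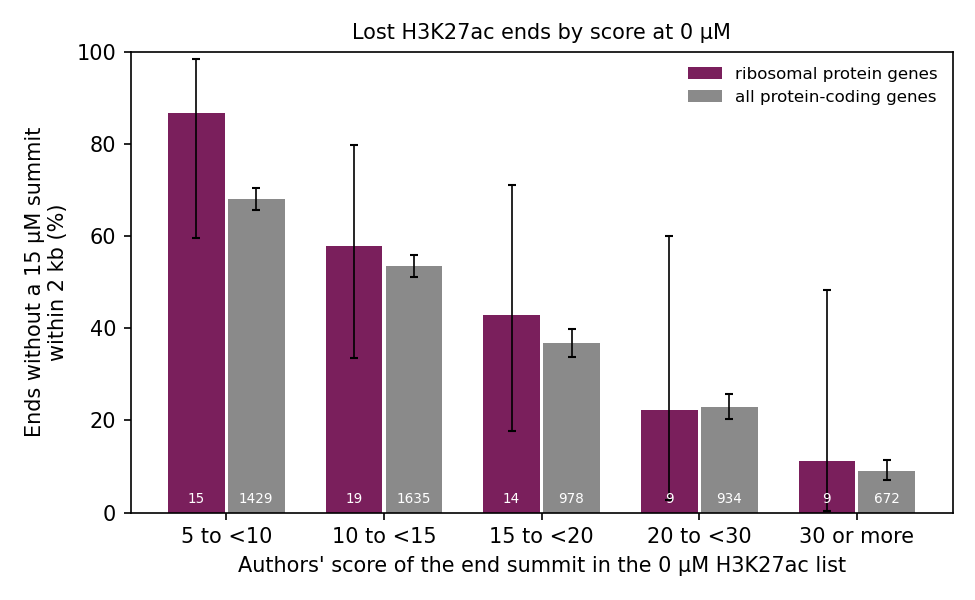
Share of 0 µM H3K27ac end summits with no 15 µM summit within 2 kb (y axis, percent) by the 0 µM score of the end summit (x axis, −log10 significance), for ribosomal protein genes and all protein-coding genes, with exact 95% intervals. The share among ribosomal protein genes is 86.7% in the lowest score bin and 11.1% in the highest, and among all genes it is 68.1% in the lowest and 9.08% in the highest.

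RPL19, a large subunit protein that reaches across to the small subunit, was the exception among high scores. Its promoter lies at the start of chr17:39200283-39204732 (plus strand), and its 0 µM summit, 65 bp before the start, scored 36 (percentile 94.8 of that list). No 15 µM summit lay within 50 kb of the gene. RPS14, the small subunit gene in the region deleted in 5q- syndrome, lost a summit that scored 28.6 at 0 µM (percentile 91.6), and RPS24, mutated in some cases of Diamond-Blackfan anaemia, lost one that scored 22.6 (percentile 86.7). RPLP2 followed at 19.8, RPL35 at 17.1, RPS27 at 16.6, RPS19 at 16 and RPL14 at 15.7. RPS19 is the gene most often mutated in Diamond-Blackfan anaemia, and RPL35 encodes a protein at the mouth of the exit tunnel. Every one of these 8 summits lay within 1 kb of the transcript start.

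Members with the strongest 15 µM summits also had one at 0 µM. Scores of different lists are not on a shared scale, so each is also given as a percentile of its own list. RPL21 scored 33.8 at 15 µM (percentile 97.8) and 20 at 0 µM (percentile 83.2). RPL35A, another gene mutated in Diamond-Blackfan anaemia, scored 30 at 15 µM (96.8) and 34.1 at 0 µM (94.1). RPS12 scored 22.2 (92.3) at 15 µM and 32.7 (93.4) at 0 µM. All of these ranked in the upper part of both lists. RPL23A, which lies at the exit tunnel near the docking site of the signal recognition particle, scored 21.5 (91.3) at 15 µM and 40.8 (96.2) at 0 µM. RPL7 scored 20.1 (90.2) at 15 µM and 41.8 (96.4) at 0 µM, and RPL37 scored 19.4 (89.1) at 15 µM and 27.2 (90.6) at 0 µM. RPL41, which encodes a peptide so short that it is among the smallest known in the cell, scored 19.6 (89.3) at 15 µM and 61.3 (98.7) at 0 µM, the highest score of any member in the 0 µM list. RPL23 ranked higher at 15 µM, with a score of 20.3 (90.6), than at 0 µM, with 13.3 (64.8). RPS26 ranked lower at 15 µM, with 5.37 (percentile 1.36), just above the lowest score in the list, than at 0 µM, with 22 (85.7).

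**Figure D3:**
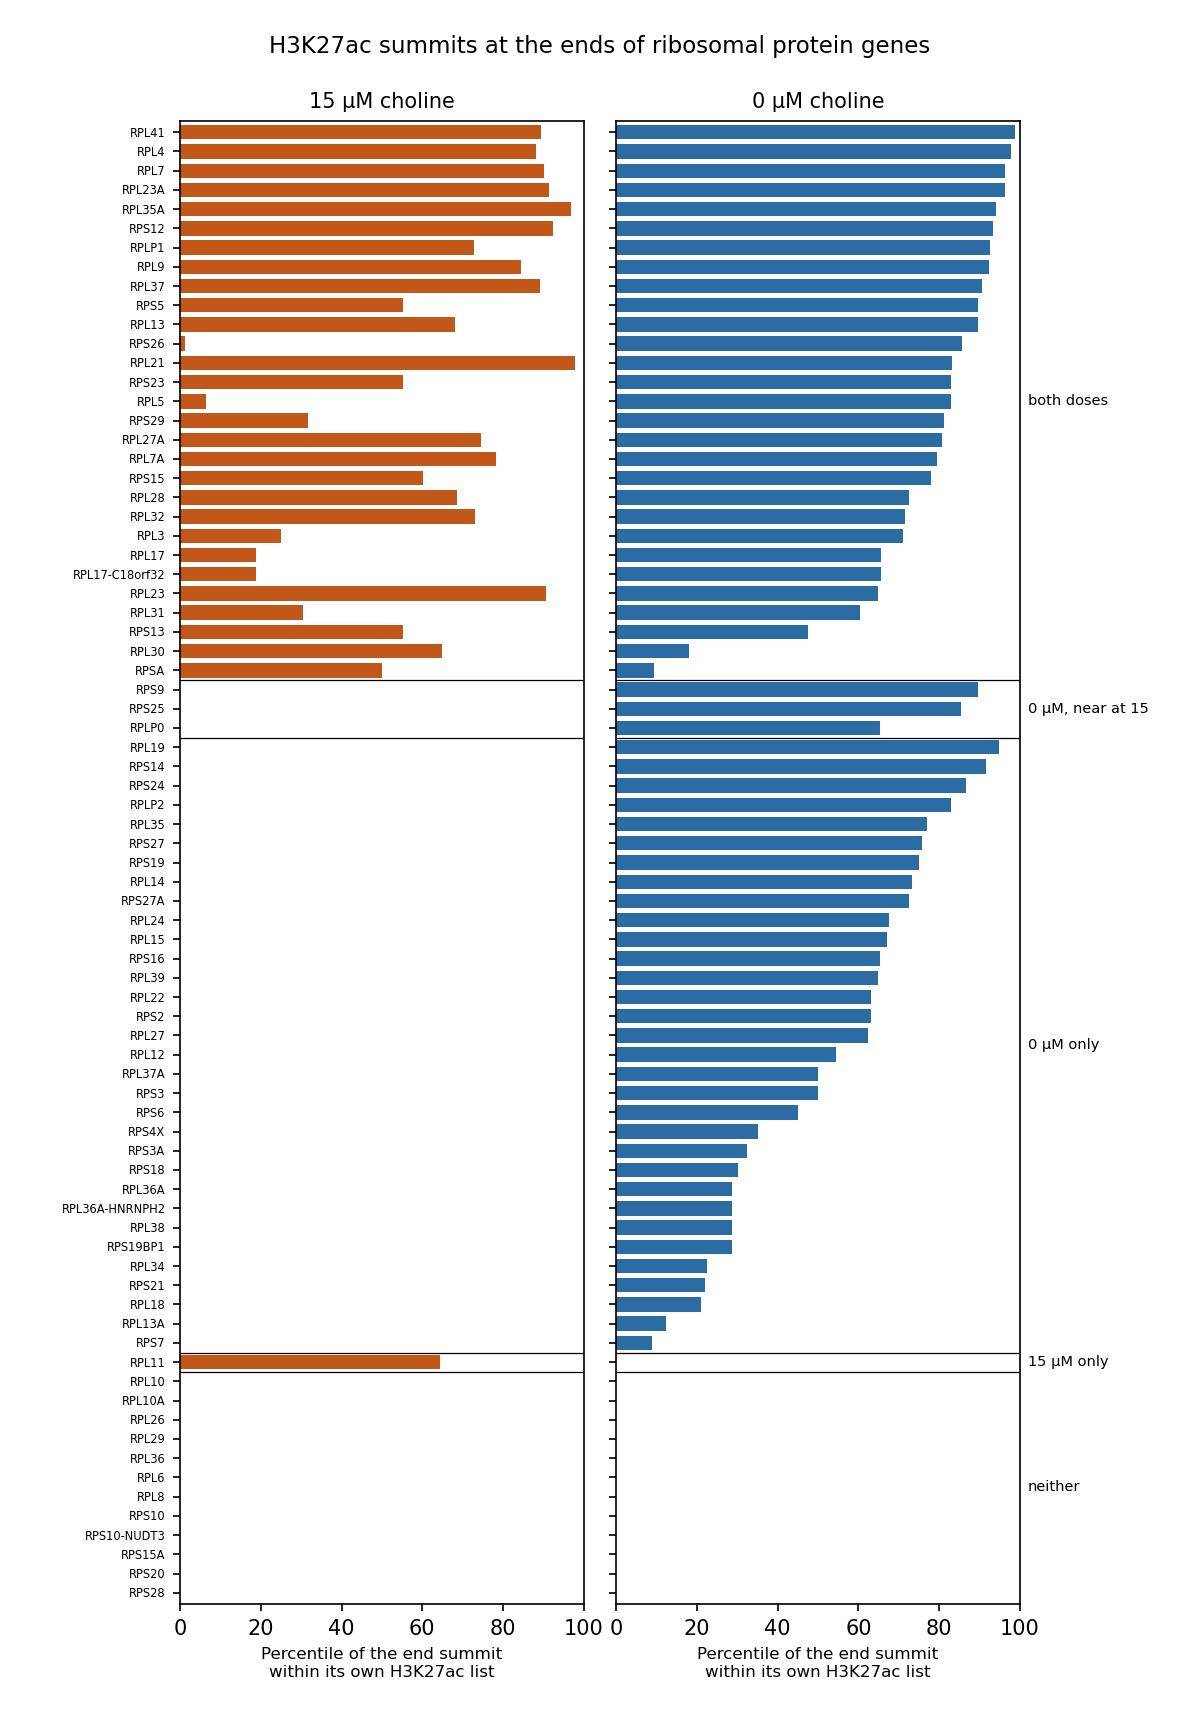
Percentile of each member's H3K27ac end summit among all summits of its own list (x axes), at 15 µM (left) and 0 µM choline (right), with a row for each gene shown, grouped by where an end summit was called and with no bar where none lay within 1 kb. RPL41 reaches percentile 89.3 at 15 µM and 98.7 at 0 µM, RPL19 heads the lost members at 94.8 at 0 µM, and RPL11 is the single gained end.

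Members of known special role fell on both sides. RPL5 and RPL11 form with a small ribosomal RNA a particle that also binds MDM2, a ubiquitin ligase. RPL11 had a 15 µM summit scoring 11.9 (percentile 64.5), 111 bp after its start, and its nearest 0 µM summit was 35625 bp from the start. RPL5 had a 15 µM summit scoring 6.03 (percentile 6.37) and a 0 µM summit scoring 19.8 (percentile 83). Of the stalk proteins that recruit elongation factors, RPLP1 had summits scoring 13.3 at 15 µM (percentile 72.9) and 30.7 at 0 µM (percentile 92.6), RPLP2 was lost, and RPLP0 had a 15 µM summit beyond the far end of the gene, 6123 bp after the start, and an end summit scoring 13.6 at 0 µM. At the peptidyl transferase centre, RPL3 had summits scoring 8.05 at 15 µM (percentile 24.9) and 14.8 at 0 µM (percentile 71.1), and RPL10, which joins the large subunit late in its maturation, had none in either list.

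Of the remaining large subunit proteins chosen by role, RPL39, which lines the exit tunnel, was lost with a 0 µM score of 13.3. RPL22, a binder of structured RNAs, was lost with 13.2, RPL36A with 8.55, and RPL13A, which also acts in interferon-gamma-dependent translational silencing, with 6.98. RPL26 had no summit in either list. On the small subunit, RPS3, at the entry of the message channel, was lost with 10.9, RPS6, the substrate of S6 kinase, with 10.5 and RPS18 with 8.65. RPS27A, made as a fusion with ubiquitin, was lost with 15.6, and the X-linked RPS4X with 9.39. RPSA, also known as the laminin receptor precursor, had summits scoring 10.3 at 15 µM (percentile 49.9) and 6.62 at 0 µM (percentile 9.43). RPS15 had summits scoring 11.4 at 15 µM (percentile 60.1) and 17.1 at 0 µM (percentile 78). Of the 23 members chosen by role, 7 had a summit at both doses and 1 a nearby one at 15 µM. Another 12 were lost, 1 was gained and 2 had none. These members were picked with earlier results known, so the tally describes them alone. Of ends with a 0 µM summit, 50% were lost over all members and 43.9% over all genes. Of ends with a 15 µM summit, 3.23% were gained over all members and 10.5% over all genes.

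The 77 single ribosomal protein genes were also split by subunit. H3K27ac end summits were at 21 of 46 large subunit genes at 15 µM and 37 of 46 at 0 µM, with 16 of 37 lost (43.2%, 27.1 to 60.5%). Among small subunit genes they were at 9 of 31 at 15 µM and 26 of 31 at 0 µM, with 15 of 26 lost (57.7%, 36.9 to 76.6%). The 2 intervals overlap, and both include the 43.9% lost among all genes with an end summit at 0 µM. A further split was by snoRNA content. Of 29 of these 77 genes with a RefSeq snoRNA gene inside their span, 18 had an end summit at 15 µM (62.1%, 42.3 to 79.3%) and 26 at 0 µM, and 8 of 26 were lost (30.8%, 14.3 to 51.8%). Of the 48 without a snoRNA gene, 12 had one at 15 µM (25%, 13.6 to 39.6%) and 37 at 0 µM, and 23 of 37 were lost (62.2%, 44.8 to 77.5%). The share lost among all genes, 43.9%, lies inside the interval of the hosts and just below that of the others. Median 0 µM end scores were 14.9 in the hosts and 15.7 in the others. The split by snoRNA content was chosen after the lists had been seen, and no test was made of it.

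Summits at these genes sat at the transcript start. Of 62 single ribosomal protein genes with a known strand, 22 had an H3K27ac end summit at 15 µM and 53 at 0 µM, and all of these had a summit within 1 kb of the start. None had one at the far end alone. Distances were taken over all 64 members with a known start, which include the readthrough genes of RPL17 and RPL36A. Of these, 23 at 15 µM and 55 at 0 µM had a summit within 1 kb of the start. Their distance from the start had a median of 226 bp at 15 µM and 208 bp at 0 µM. At 15 µM, 15 of these members had the nearest summit upstream and 8 downstream, and at 0 µM 27 had it upstream and 28 downstream. In bins of 200 bp at 0 µM, 29.7 summits per 100 genes were centred 300 bp upstream and 28.1 were centred 100 bp downstream, with 12.5 in the bin centred 100 bp upstream. Some summits also lay within 1 kb of an end of a neighbouring gene. Of 30 single genes with an end summit at 15 µM, 9 shared it with the end of another coding gene, as did 17 of 63 at 0 µM.

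**Figure D4:**
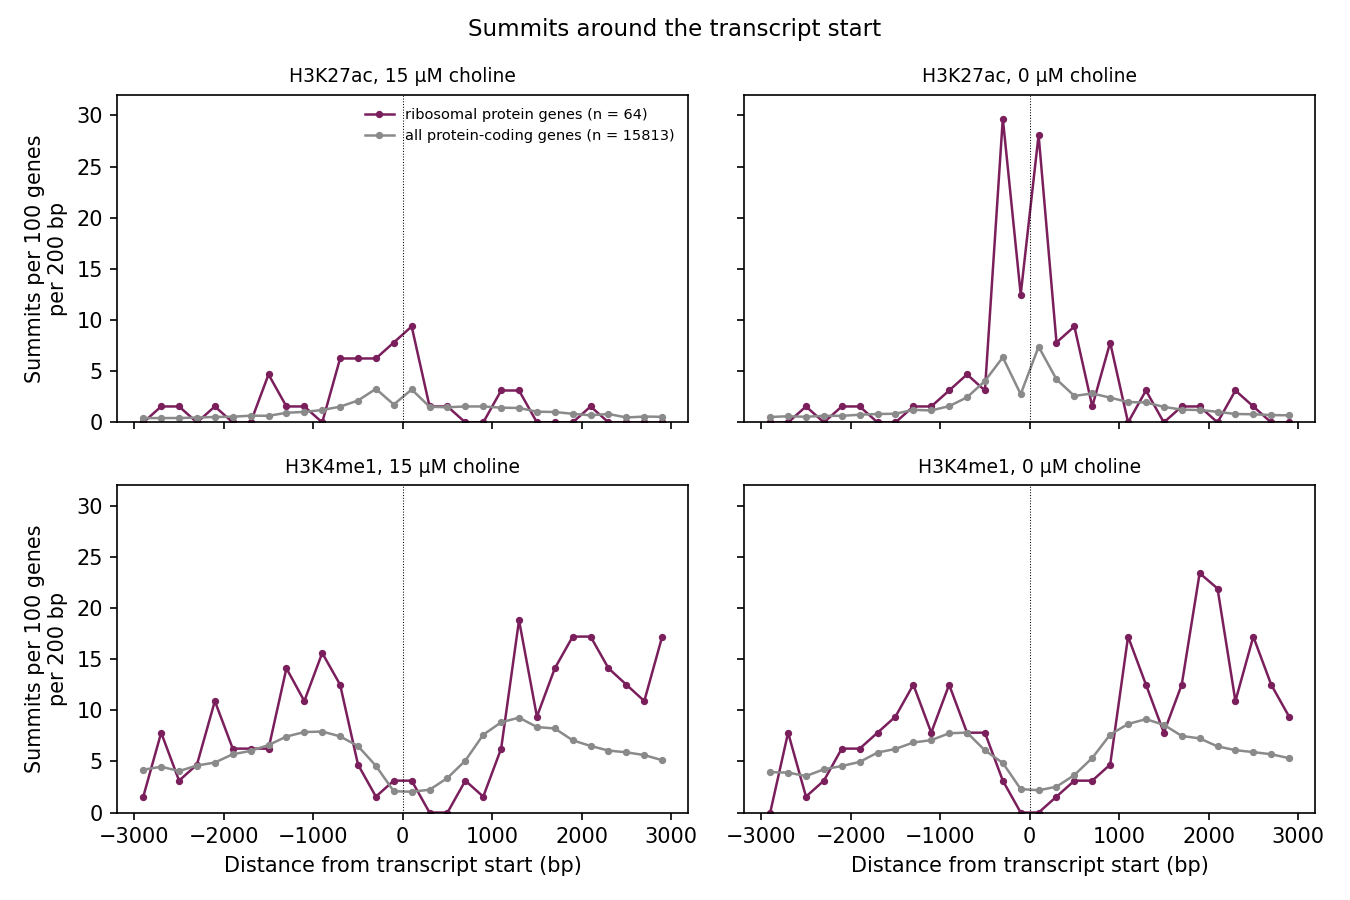
Summits per 100 genes in 200 bp bins (y axis) by distance from the annotated transcript start (x axis, bp, negative upstream) for 64 ribosomal protein genes and 15813 protein-coding genes, at 15 µM and 0 µM choline. H3K27ac summits gather near the start, and H3K4me1 summits are sparse there and more frequent on both flanks.

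The profile around the start was the reverse for H3K4me1. Within 500 bp of the start it had a summit in 6 of 64 members at 15 µM (9.38%) and 7 at 0 µM (10.9%). Over all genes the shares were 14.8% at 15 µM and 15.3% at 0 µM. Among genes with a 0 µM H3K27ac summit at the start they were 10.9% at 15 µM and 12.3% at 0 µM, near those of the members. The nearest summit lay 500 to 2000 bp away in 54 members at 15 µM (84.4%) and 49 at 0 µM (76.6%), against 54.6% of all genes at 15 µM and 52.4% at 0 µM. For genes with a 0 µM H3K27ac summit at the start these shares were 80.2% at 15 µM and 78.3% at 0 µM. As summits per gene and kb, H3K4me1 density among members was 0.0977 at 15 µM and 0.0586 at 0 µM in the innermost 400 bp on each side, and 0.527 at 15 µM and 0.56 at 0 µM on the flanks 800 to 2000 bp out. H3K27ac density showed the opposite order, at 0.312 at 15 µM and 0.977 at 0 µM inside, and 0.0586 at 15 µM and 0.0911 at 0 µM on the flanks. Both orders also held over all genes. There H3K4me1 density was 0.136 at 15 µM and 0.148 at 0 µM inside, and 0.379 at 15 µM and 0.364 at 0 µM on the flanks. All-gene H3K27ac density was 0.122 at 15 µM and 0.259 at 0 µM inside, and 0.0515 at 15 µM and 0.0698 at 0 µM on the flanks. Of H3K4me1 summits nearest the start and within 1 kb, 21 were upstream and 5 downstream at 15 µM, and at 0 µM 19 were upstream and 5 downstream.

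Few members had a lost or gained H3K4me1 end, and few could, since nearly all had a summit within 2 kb in each list. H3K4me1 end summits were at 59 of 81 members at 15 µM (72.8%, 61.8 to 82.1%), beside 52.9% of all genes, and at 48 of 81 at 0 µM (59.3%, 47.8 to 70.1%), beside 51.6%. The gap between doses depended on the distance. Within 500 bp the counts were 39 at 15 µM and 34 at 0 µM, and within 2 kb they were 78 at 15 µM and 77 at 0 µM. The 2 kb counts were close to all 81 members and leave little room for a gap. A lost or gained call needs no summit within 2 kb in the other list. The members' low shares of such calls are therefore not read as stability of the mark. RPL36 was the 1 member of 48 with a lost H3K4me1 end, where 8.92% of all genes with one were lost. RPL32, RPS4X and RPL10 were the 3 of 59 with a gained end, where 10.9% of all genes were. At RPS4X the gained H3K4me1 end stood beside a lost H3K27ac end.

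Within 50 kb of either end, H3K27ac summits summed over the members to 218 at 15 µM and 340 at 0 µM, a ratio of 0.641 (0.538 to 0.762, counting error only). The same ratio was 0.705 over all genes, and 0.772 between the list lengths. The interval lies below the ratio of list lengths and includes that over all genes. Windows of neighbours overlap, and with each summit counted once the sums were 205 at 15 µM and 323 at 0 µM, a ratio of 0.635. Windows had a median of 1 summit at 15 µM and 3 at 0 µM, and 29 windows were empty at 15 µM against 9 at 0 µM. Over all genes 9746 windows were empty at 15 µM and 6996 at 0 µM. For single genes, the 0 µM count was scaled by the ratio of list lengths, 1 was added to both counts, and a ratio of at most 0.5 was called lower and at least 2 higher. Lower windows were 22 of 81 (27.2%), beside 11.9% of all genes, and higher ones were 2 (2.47%), beside 3.45%. The 2 higher windows were those of RPS10 and its readthrough gene, with 1 summit at 15 µM and 0 at 0 µM. The windows of 7 members, among them RPS20, RPL8, RPL26, RPS28 and RPL10, held no H3K27ac summit in either list and could not be called, as was the case for 6546 of all genes. In 22 windows (27.2%) all summits were in the 0 µM list, beside 16% of all genes, and many of these were also among the lower windows. Windows empty in both lists stay in the denominators of these shares, and they were a larger part of all genes than of the members. The members' excess in lower windows and in windows with 0 µM summits alone is therefore smaller than these shares show.

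The 5 windows with the highest difference, as the 15 µM count minus the scaled 0 µM count, were those of RPL9, RPL37, RPL41, RPL23A and RPS15. RPL9, whose end summit also lies at an end of LIAS, the lipoic acid synthase gene, had 23 summits at 15 µM and 15 at 0 µM, which differ by 11.42 after scaling. RPL37 had 24 at 15 µM and 21 at 0 µM, and RPL41 had 17 at 15 µM and 15 at 0 µM. RPL23A had 15 at 15 µM and 14 at 0 µM, and RPS15 had 11 at 15 µM and 10 at 0 µM. These 5 were among the members with an end summit at both doses. The lowest was RPS27, a small subunit zinc finger protein gene, where 3 summits at 15 µM stood against 12 at 0 µM, with a scaled difference of -6.27. RPS3 had 1 at 15 µM and 7 at 0 µM, and RPS2 had 3 at 15 µM and 9 at 0 µM. RPL5 had 2 at 15 µM and 7 at 0 µM. RPS27, RPS3 and RPS2 also had a lost end, whereas RPL5 had an end summit at both doses. RPL13A tied with RPL5 at 2 summits at 15 µM and 7 at 0 µM.

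**Figure D5:**
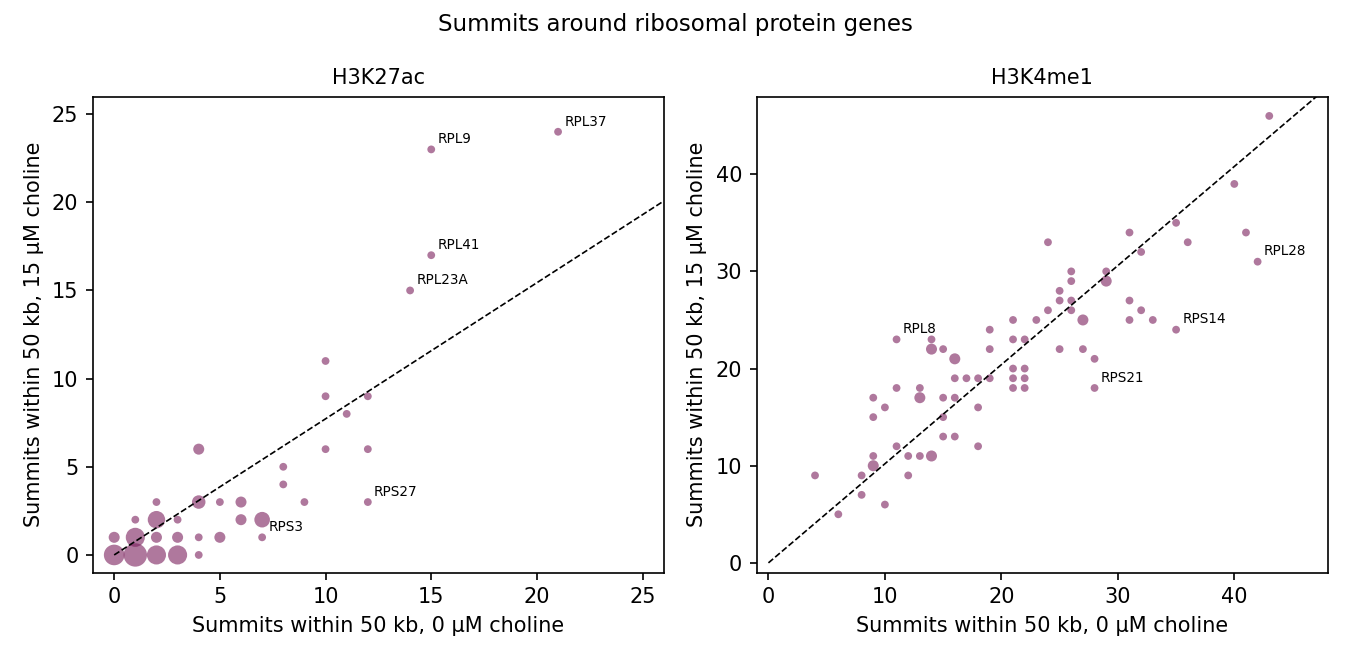
Summits within 50 kb of each ribosomal protein gene at 15 µM (y axis, count) against 0 µM (x axis, count), for H3K27ac and H3K4me1, with point area growing with the number of genes at that place and a dashed line at the ratio of the list lengths. H3K27ac counts fall mostly below the line, with RPL9, at 23 for 15 µM and 15 for 0 µM, above it, and H3K4me1 counts lie around it.

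H3K4me1 windows are plotted beside the H3K27ac ones. They summed to 1697 at 15 µM and 1667 at 0 µM, a ratio of 1.02 (0.951 to 1.09), equal to that of the list lengths at this precision. No member was called lower, beside 2.97% of all genes, or higher, beside 2.78%. Medians were 21 summits at 15 µM and 19 at 0 µM. The largest differences upward were at RPL8, with 23 summits at 15 µM and 11 at 0 µM, and RPS19, with 23 at 15 µM and 14 at 0 µM. RPL27 had 33 at 15 µM and 24 at 0 µM, and RPS4X had 17 at 15 µM and 9 at 0 µM. The largest downward were at RPL28, with 31 at 15 µM and 42 at 0 µM, and RPS14, with 24 at 15 µM and 35 at 0 µM. RPS21 had 18 at 15 µM and 28 at 0 µM, and RPL35 had 25 at 15 µM and 33 at 0 µM. RPS19, RPL27, RPS4X, RPS14, RPS21 and RPL35 had all lost their H3K27ac end. They were named for the size of their H3K4me1 difference in either direction, and none was called lower or higher. No relation between the H3K27ac loss and H3K4me1 can be read from them.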

How the data were processed

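Huh7 cells were profiled by ChIP-seq with 1 library per mark and dose. The authors used Bowtie, Picard, deepTools and MACS2 with the genome build hg38, per the submitters' processing notes, with versions and settings not given in the sources used here. Each deposited list holds 1 base per summit and a −log10 score. The lowest scores were 5.01 in both H3K27ac lists and 1.30 (15 µM) and 1.31 (0 µM) in the H3K4me1 lists, and whether a score is from a p or a q value is not stated. Scores were therefore compared only within a list, and a score named for both doses has its percentile of its own list beside it. Read depth is unknown.

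Summits on chromosomes 1 to 22 and X were joined to both annotated ends of RefSeq protein-coding genes, within 1 kb (gene end) and 50 kb (window), in Python 3.11.15 with pandas 2.3.3 and scipy 1.17.1, and the steps were tested on simulated lists. Transcript starts and strands came from RefSeq promoters of GRCh38.p14, and 17 members without one entered no analysis by start. Shares have exact Clopper-Pearson 95% intervals. The members and lists were chosen with earlier results of these data known. Named were the gained members, the 8 highest-scoring lost and kept ends, the window extremes and 23 members picked by role. Alternatives changed the distances, the ends counted, the list lengths, the score limit and the members. Input, RNA-seq and CUT&Tag samples (8 of 12) were not analysed here. Some members are counted but not reported here by name.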

Additional observations from a re-analysis of the deposited data

How the results depend on the processing

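Over 8 results and 50 alternatives, 43 values stayed near the reported ones, which means within 1.5 times for a count and inside the reported interval for a window ratio, 7 moved and none reversed. With H3K27ac lists of equal length, 3 of 31 members had a gained end (9.68%, all genes 14.5%), the window ratio was 0.813 (all genes 0.9), and 28 of 59 ends were lost (47.5%, all genes 40.7%). A window of 20 kb gave a ratio of 0.538 (all genes 0.686). Within 500 bp, H3K4me1 end summits were at 39 members at 15 µM (48.1%, all genes 27.7%) and 34 at 0 µM (42%, all genes 26.9%). Within 2 kb they were at 78 members at 15 µM (96.3%, all genes 75.2%) and 77 at 0 µM (95.1%, all genes 73.5%). For scores of at least 5 they were at 20 members at 15 µM (24.7%, all genes 18.5%) and 18 at 0 µM (22.2%, all genes 19.8%), where with every summit counted the 15 µM share was 72.8% (all genes 52.9%) and the 0 µM share 59.3% (all genes 51.6%). Counting the transcript start alone, 32 of 55 H3K27ac ends were lost (58.2%), beside 45.5% of all genes. The cause of these shifts was not tested. Leaving out the 3 readthrough genes and RPS19BP1, chosen after seeing the data, kept all 8 values near by the same measure. No paired analysis was possible because each mark and dose has 1 library. Without read depth or replicates, the absence of a summit cannot be told apart from a peak just under the calling threshold.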

Other observations

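The highest H3K4me1 end score among the members was at RPL41 in the 0 µM list, at 495.5. The next highest in that list was 16.4, at RPS3. At RPL41 the 15 µM list had no H3K4me1 summit within 1 kb of either end. The 0 µM list reaches a score of 15025 and the 15 µM list 158.3, with medians of 3.48 at 0 µM and 3.47 at 15 µM. The score at RPL41 thus belongs to a tail that the 15 µM list lacks, and its source was not tested. The H3K4me1 summits nearest the RPL41 start lay at -1495 bp at 15 µM and 1030 bp at 0 µM, with negative values upstream. Of the 8 genes whose symbols end in L or L1 after the number, RPL22L1 and RPL7L1 had H3K27ac end summits at both doses, RPL36AL had one at 15 µM alone, RPS27L had one at 0 µM alone, and RPL39L, RPL26L1, RPL10L and RPL3L had none in either list.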
